A study of Bos taurus with 6 samples.

Results

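The 10 genes described here encode histone lysine demethylases (KDMs) of the KDM1 to KDM6 subfamilies: KDM1A, KDM2A, KDM2B, KDM3A, KDM3B, KDM4A, KDM4B, KDM4C, KDM5B and KDM6B. The rule that picks them uses gene symbols and no measured value, although earlier results of these data were known when the set was proposed. All 10 were present among the 19163 genes of the count table and all 10 passed the filter on low counts. The RNA came from F7, a single line of bovine embryonic stem cells (bESCs) derived from in vitro fertilized Holstein Friesian embryos. MC-F7 cells were grown on mouse embryonic fibroblasts arrested with mitomycin C (named 1M in the labels), and MT-F7 cells on fibroblasts that had been fixed with methanol. Both groups were kept in the same growth factor-free base medium with added FGF and the Wnt inhibitor IWR1, and are described as 15 passages. Before RNA extraction the cells were plated briefly on gelatin to remove feeder cells, and floating cells were collected. The authors aligned a lower share of MC-F7 reads than of MT-F7 reads to the bovine genome. They read this as less feeder contamination on the fixed feeders. The part of feeder RNA in the results below was not tested. MC-F7 medium was changed every day and MT-F7 medium every other day, so the feeder treatment and the feeding interval cannot be told apart.

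Histone lysine demethylases remove methyl groups from the tails of histones. KDM1A is a flavin-dependent amine oxidase, whereas KDM2 to KDM6 enzymes carry a Jumonji C (JmjC) domain that uses iron, molecular oxygen and 2-oxoglutarate. Because they consume oxygen, and because several of their genes are induced by hypoxia-inducible factors (HIFs), the JmjC enzymes are often discussed as links between oxygen supply and chromatin. In pluripotent cells KDM1A, KDM2B, KDM3A, KDM4C and KDM5B in particular have been studied as regulators of self-renewal and of enhancers.

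Each group had 3 libraries with total counts between 21958386 and 24933430. Levels are TMM-normalized CPM (counts scaled to a common library size), group values are the mean ± SD of n = 3 libraries, and log2 fold changes are MT-F7 over MC-F7. Significance was an adjusted p under 0.05 in edgeR's quasi-likelihood test over 13001 tested genes, since an exact permutation test of 3 against 3 libraries cannot go below p = 0.1. The labels do not say that the 3 libraries were grown as separate cultures. For their data in general the authors describe means of 3 or more technical replicates, without naming the RNA libraries. The p-values then measure only the spread between these libraries, which may be technical. Genes of the mitochondrial genome took 16.3% to 28.3% of the counts, and in each group this share peaked in replicate 3. Fibroblast markers were present in all libraries. Over 15 genes their summed level was 302 to 398 CPM in MC-F7 and 619 to 781 CPM in MT-F7. Much of the difference in this sum was ACTA2, at 85.3 ± 16.4 CPM in MC-F7 and 309 ± 71.2 CPM in MT-F7. Of these 15, 5 rose, 1 fell and 9 did not pass the test, and none was at 0 in all libraries. Over all tested genes 11.9% rose and 11.3% fell. The 5 pluripotency markers that could be counted included POU5F1 and NANOG. They summed to 1343 to 2012 CPM in MC-F7 and 738 to 854 CPM in MT-F7. Of these 5 markers 4 fell, beside the 11.3% of all tested genes that fell. The other 5 of the 10 listed were not analysed here. The part of either marker list in the results below was not tested. In bulk RNA, fewer expressing cells and less RNA per cell cannot be told apart.

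KDM4A was the only one of the 10 demethylase genes that passed the test between the feeder layers, and it was lower in MT-F7. Across all genes tested 23.2% passed in either direction, so 1 of 10 is not above that background. The other 9 did not pass, with adjusted p from 0.268 to 0.955. For 8 of these 9 the 95% confidence interval of the fold change lay entirely within 2-fold in either direction, and for 7 within 1.5-fold. The median log2 fold change of the 10 genes was -0.092, beside -0.0026 over all tested genes, with 3 genes above 0 and 7 below. Groups did not overlap in 1 of the 10 genes, which was lower in MT-F7, against 40.0% of all tested genes (20.1% lower and 19.9% higher). The calls over all genes were split into 11.9% higher and 11.3% lower.

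The order of the 10 genes was compared on the deposited TPM, which is scaled to gene length, and the levels are descriptions without a test between genes. KDM1A had the highest level in both groups, with 14.6 ± 2.08 TPM in MC-F7 and 13.4 ± 1.68 in MT-F7, followed by KDM5B with 6.14 ± 0.550 and 6.92 ± 0.426. These first 2 stood clear of each other and of KDM3A in every library. Below them came a set of genes at 1 to 4 TPM whose neighbours often overlapped. In MC-F7 KDM3A, KDM2A, KDM4A and KDM6B ran from 3.61 to 2.58 TPM on average, and KDM3A overlapped with KDM2A, KDM2A with KDM4A, and KDM4A with KDM6B. KDM3B at 0.515 ± 0.145 TPM and KDM4C at 0.0776 ± 0.0412 TPM in MC-F7 were separated from all the others. KDM4A stood at the fifth place in MC-F7 and at the seventh in MT-F7, where it overlapped with KDM4B. Grouped by substrate, the H3K4 enzymes KDM1A and KDM5B took 56.8% of the summed TPM of the 10 genes in MC-F7, against 56.0% in MT-F7. The sum of all 10 was 36.5 ± 2.40 TPM in MC-F7 and 36.3 ± 1.05 in MT-F7. Library size remains in the deposited TPM, so these levels are not on a common scale between the groups. Over all genes the libraries added up to 154763 to 161716 TPM in MC-F7 and 163772 to 164394 TPM in MT-F7. The order and the shares within a library do not depend on this.

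**Figure D1:**
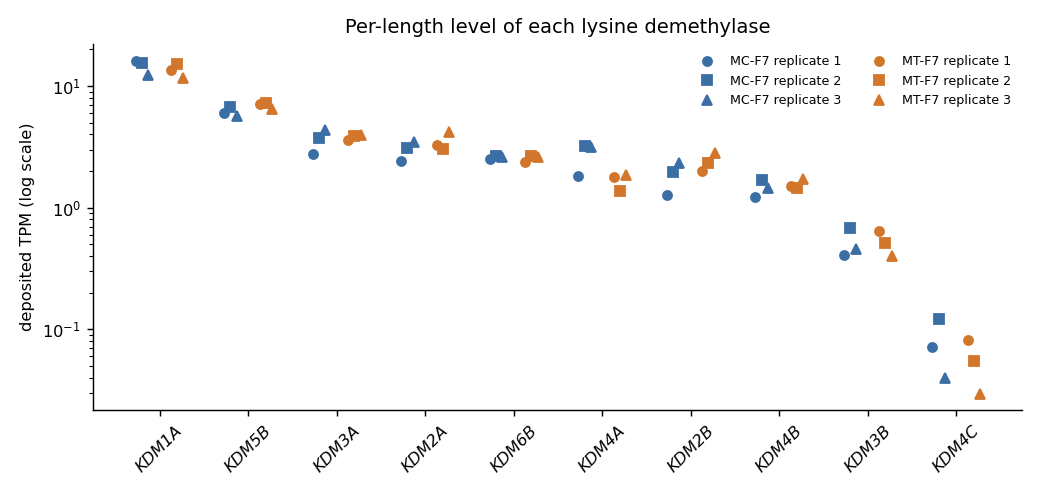
Deposited TPM (log scale) of each demethylase gene in the 6 libraries, ordered by mean level. Blue marks are MC-F7, orange marks are MT-F7, and the shape gives the replicate; KDM1A and KDM5B lie above the rest and KDM4C lies below them in every library, while the KDM4A marks of the groups meet between 1.83 TPM (MC-F7 replicate 1) and 1.87 TPM (MT-F7 replicate 3).

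Among the H3K9 enzymes, KDM4A (Entrez gene 512622), which demethylates trimethylated H3K9 and H3K36, had 36.1, 58.9 and 66.3 CPM in MC-F7 and 31.5, 23.4 and 35.4 CPM in MT-F7. Every MT-F7 library lay below every MC-F7 library, but MC-F7 replicate 1 was within 1 CPM of MT-F7 replicate 3. On the deposited TPM, which is not scaled between libraries, these 2 libraries changed places (1.83 and 1.87 TPM), so that the groups overlapped. The level fell from 53.8 ± 15.7 to 30.1 ± 6.10 CPM, by 0.84 on the log2 scale (standard error 0.225, adjusted p = 0.0171), to 0.560 of the MC-F7 level with a 95% interval from 0.399 to 0.786. The call was lost without MC-F7 replicate 2 (adjusted p = 0.0740) or without MT-F7 replicate 2 (adjusted p = 0.0747), and it held in the other 4 fits that left out 1 library, with log2 fold changes from -1.05 to -0.67 over all 6. It was also lost when the deposited TPM was tested with limma (adjusted p from 0.0723 to 0.144 over 4 settings). The share of all genes called in these limma settings was 14.0%, 14.4%, 18.9% and 14.1%. It was 19.2% to 23.2% with other scaling or count filters (22.8% with library size only and 22.7% with at least 10 counts in every library), 26.1% with DESeq2, 27.6% with edgeR's likelihood ratio test and 4674 of 13001 genes with the replicate block, and KDM4A passed in all of these. Without replicate 1, 2 or 3 of MC-F7 the share was 20.2%, 14.5% and 23.4%, and without replicate 1, 2 or 3 of MT-F7 it was 16.3%, 16.9% and 23.3%.

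KDM4B (508141), a paralog of KDM4A that is a known HIF target, had 24.9, 32.1 and 30.8 CPM in MC-F7 and 27.6, 25.6 and 33.5 CPM in MT-F7. The groups were interleaved, with a log2 fold change of -0.017 (95% interval -0.385 to 0.351, adjusted p = 0.955), and the sign turned under several settings. The third paralog, KDM4C (535671), was close to the lower end of what can be tested, where 29, 49 and 16 reads were counted for MC-F7, and 33, 22 and 12 for MT-F7. Its log2 fold change of -0.60 had a standard error of 0.477 and an interval from -1.64 to 0.43, so at this depth a 2-fold fall in it could be neither detected nor excluded. Leaving out 1 library moved it between -0.99 and -0.19, closest to 0 without MC-F7 replicate 2.

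The ratio of KDM4A to KDM4B within a library does not depend on library size. On the deposited TPM it was 1.49, 1.88 and 2.21 in the MC-F7 libraries and 1.17, 0.936 and 1.08 in those of MT-F7, without overlap. This ratio and 4 others were chosen after the values had been seen. A two-sided exact permutation test gave p = 0.1, the smallest value 3 against 3 libraries allow, and 0.25 after adjustment over 5 ratios.

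KDM3A (536073) and KDM3B (100848816) remove mono- and dimethyl groups from H3K9, and KDM3A is among the best known HIF targets of the family. KDM3A had 63.9, 81.4 and 106 CPM in MC-F7 and 74.7, 78.0 and 87.5 CPM in MT-F7. The 3 MT-F7 values lay inside the range of MC-F7, and the log2 fold change was -0.066 (95% interval -0.464 to 0.331, adjusted p = 0.832). KDM3B had 12.6, 19.6 and 14.8 CPM in MC-F7 and 17.8, 13.7 and 11.8 CPM in MT-F7, again overlapping, with a log2 fold change of -0.12 (95% interval -0.576 to 0.341, adjusted p = 0.733). The ratio of KDM3A to KDM3B was 7.23 ± 2.03 in MC-F7 and 7.63 ± 2.12 in MT-F7 (exact permutation p = 0.7).

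**Figure D2:**
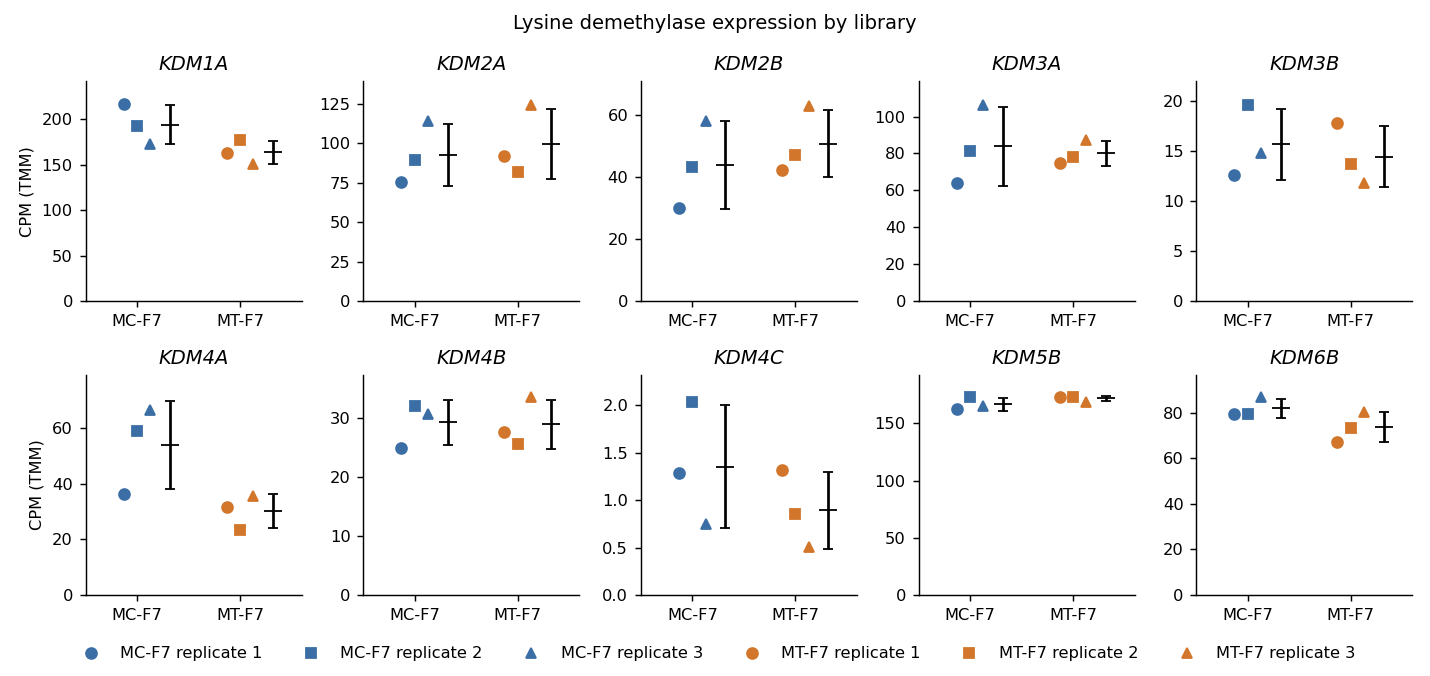
TMM-normalized CPM of the 10 genes in each library, with an axis from 0 in every panel. Marks are single libraries, shaped by replicate, and the black bar beside them is the mean ± SD of 3 libraries; the groups are apart in KDM4A (53.8 against 30.1 CPM) and overlap in the other 9 panels.

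The H3K4 enzymes had the highest levels per length. KDM1A (532997), also called LSD1, removes mono- and dimethyl groups from H3K4 as part of the CoREST complex. It had 217, 193 and 173 CPM in MC-F7 and 163, 177 and 151 CPM in MT-F7, and the groups overlapped only through MC-F7 replicate 3 and MT-F7 replicate 2. The log2 fold change was -0.25 (standard error 0.151, 95% interval -0.572 to 0.080, adjusted p = 0.268), and it was negative under all 18 other settings without passing in any. KDM5B (540633), a JmjC enzyme for di- and trimethylated H3K4, had 162, 173 and 165 CPM in MC-F7 and 173, 173 and 169 CPM in MT-F7. It was the most tightly bounded of the 10, with a log2 fold change of 0.044 and a standard error of 0.137, that is a fold change between 0.839 and 1.27.

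For H3K36, KDM2A (540141) and KDM2B (614487) bind unmethylated CpG-rich DNA through a zinc finger, and KDM2B carries a Polycomb complex to CpG islands. KDM2A had 75.2, 89.1 and 114 CPM in MC-F7 and 91.8, 82.0 and 124 CPM in MT-F7, giving a log2 fold change of 0.099 (95% interval -0.322 to 0.520, adjusted p = 0.757). KDM2B had 29.9, 43.3 and 58.1 CPM in MC-F7 and 42.2, 47.2 and 62.7 CPM in MT-F7, giving a log2 fold change of 0.21 (95% interval -0.281 to 0.705, adjusted p = 0.544), which ran from 0.0011 (without MC-F7 replicate 1) to 0.46 (without MC-F7 replicate 3) with 1 library left out. Both genes varied more within a group than between the groups, and their ratio was 0.616 ± 0.0789 in MC-F7 and 0.681 ± 0.0769 in MT-F7 (exact permutation p = 0.5).

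KDM6B (100140276), or JMJD3, removes methyl groups from H3K27 and so opposes Polycomb silencing. Its values were 79.3, 79.4 and 86.7 CPM in MC-F7 and 67.2, 73.1 and 80.2 CPM in MT-F7. Only MT-F7 replicate 3 reached the MC-F7 range, and the log2 fold change was -0.15 (standard error 0.143, 95% interval -0.465 to 0.156, adjusted p = 0.479).

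**Figure D3:**
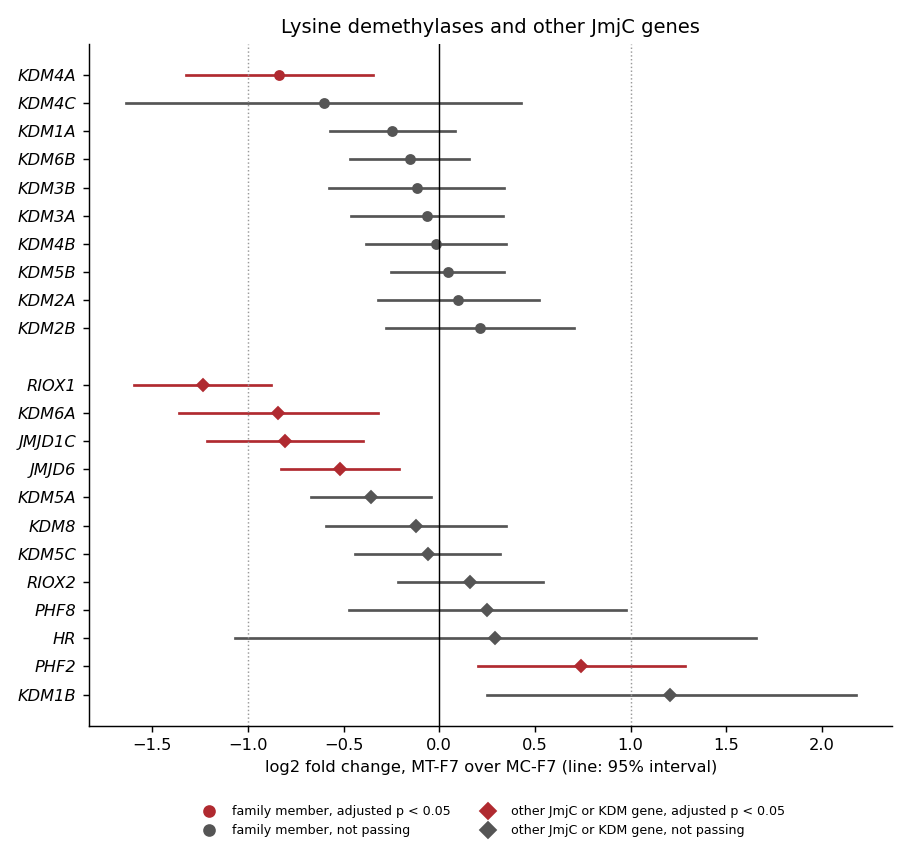
Log2 fold change (MT-F7 over MC-F7) with its 95% interval for the 10 demethylase genes (circles, top) and 12 further KDM and JmjC genes (diamonds, bottom), red where the adjusted p was under 0.05. Dotted lines mark a 2-fold change in either direction; 8 of the 10 upper intervals lie between them, and those of KDM4A and KDM4C do not.

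Some of the 10 genes, but not all, shared part of their spread among replicates, in opposite directions. KDM2A, KDM2B, KDM3A, KDM4A and KDM6B had their highest CPM in replicate 3 of both groups, which are also the libraries with the largest mitochondrial share, and KDM1A and KDM4C had their lowest there. Over all tested genes 24.7% were highest and 25.8% were lowest in replicate 3 of both groups, against 5 and 2 of these 10. Whether this pattern plays a part in the comparisons was not tested. With the mitochondrial genes removed before normalization, KDM4A gave the same log2 fold change of -0.84 (adjusted p = 0.0171). That removal leaves the counts of KDM4A as they were, so it could not test the replicate 3 pattern.

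Of 18 further KDM and JmjC genes listed, 12 were tested, of which 1 rose, 4 fell and 7 did not pass, where 23.2% of all tested genes passed (11.9% higher, 11.3% lower). Whether this share differed from that of the 10 genes above was not tested. Their median log2 fold change was -0.091. RIOX1, a JmjC oxygenase of the nucleolus that hydroxylates a ribosomal protein, had 46.2, 46.1 and 39.2 CPM in MC-F7 and 20.9, 19.2 and 15.7 CPM in MT-F7. Its fall by 1.24 on the log2 scale (standard error 0.166, adjusted p = 1.9e-04) was the largest fall among the KDM and JmjC genes tested, and it passed under all 18 other settings.

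JMJD1C, the third member of the KDM3 subfamily, had 150, 213 and 259 CPM in MC-F7 and 126, 112 and 118 CPM in MT-F7, without overlap. It fell by 0.81 on the log2 scale (standard error 0.189, adjusted p = 0.0080), and the call held in all 6 fits that left out 1 library. Of the 12 other settings it held in 9. The JMJD6 gene, whose product hydroxylates lysines of splicing factors, fell from 54.7 ± 2.74 to 38.2 ± 1.40 CPM (log2 fold change -0.52, adjusted p = 0.0180), a call that held in 2 of those 6 fits. PHF2, an H3K9 demethylase, rose from 5.71 ± 1.66 to 9.56 ± 2.02 CPM (log2 fold change 0.74, adjusted p = 0.0471), also passing in 2 of 6. JMJD6 and PHF2 were each lost without replicate 1 or 2 of MC-F7 or replicate 1 of MT-F7, JMJD6 also without MT-F7 replicate 2 and PHF2 also without MT-F7 replicate 3.

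KDM6A (UTX), the X-linked paralog of KDM6B, had 32.6, 48.6 and 68.2 CPM in MC-F7 and 26.2, 23.4 and 33.8 CPM in MT-F7. The groups touched, since MC-F7 replicate 1 lay below MT-F7 replicate 3. It fell by 0.84 on the log2 scale (standard error 0.240, adjusted p = 0.0228), which was still called in 2 of 6 fits, being lost without MC-F7 replicate 2 or 3 or MT-F7 replicate 1 or 2. KDM6A passed and KDM6B did not, but a difference between them was not shown: the ratio of KDM6A to KDM6B was 0.668 ± 0.208 in MC-F7 and 0.417 ± 0.0573 in MT-F7 (exact permutation p = 0.2, 0.333 over 5 ratios). The ratio of KDM5B to its paralog KDM5A was 4.79 ± 0.370 in MC-F7 and 6.33 ± 0.437 in MT-F7, without overlap (exact permutation p = 0.1, 0.25 over 5 ratios).

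**Figure D4:**
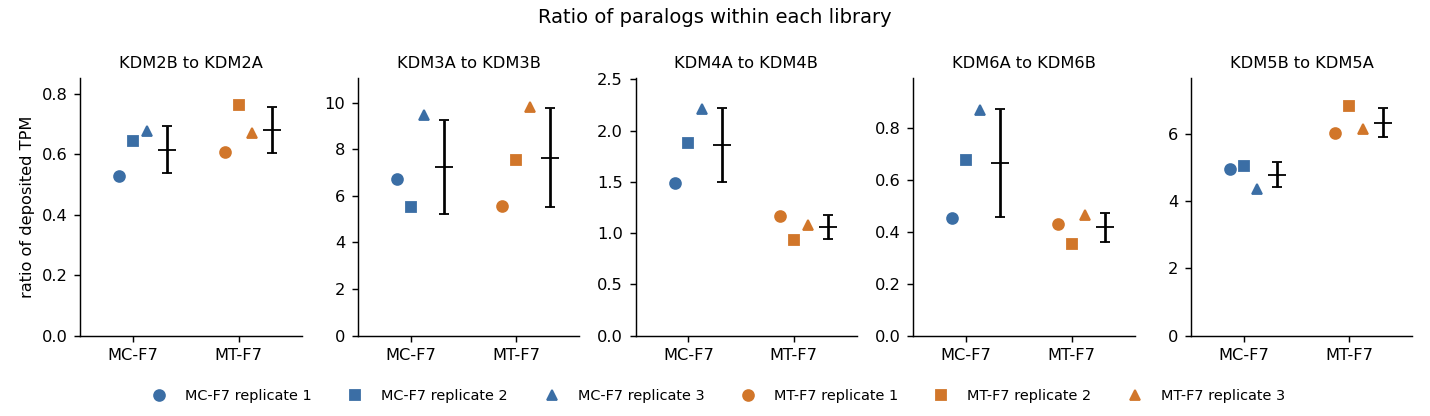
Ratio of deposited TPM between paralogs within each library, with axes from 0. Marks are libraries, shaped by replicate, and black bars are the mean ± SD of 3; the ratios of KDM4A to KDM4B and of KDM5B to KDM5A do not overlap between groups, and the other 3 do.

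The hypoxia-inducible members were set beside other HIF targets from a list of 20 textbook genes. This list was chosen with earlier results of these data known, and the paper had already reported several of its genes as lower in MT-F7. In that list 16 genes fell, none rose and 4 did not pass, with a median log2 fold change of -1.33. Over all tested genes 11.3% fell. LDHA, which makes lactate, fell from 534 ± 152 to 32.3 ± 7.78 CPM, the vasodilator peptide gene ADM from 17.9 ± 1.84 to 1.21 ± 0.233 CPM, and the carbonic anhydrase CA9 from 17.4 ± 0.225 to 4.24 ± 0.339 CPM (adjusted p = 7.7e-07, 6.2e-07 and 6.6e-06). Of the 4 demethylases described as direct HIF targets, KDM3A, KDM4B, KDM4C and KDM5B, none passed, and their median log2 fold change was -0.042. The lower ends of the intervals of KDM3A, KDM4B and KDM5B were log2 fold changes of -0.464, -0.385 and -0.253, all above the median of the HIF target list, while the interval of KDM4C reached -1.64 and included it. Single genes of that list ran from -4.20 to 0.495, and the log2 fold changes of all 4 demethylases lay inside this range. Whether these 4 differed from the list was not tested.

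Of 10 HIF subunits and oxygen sensors 1 was higher, 3 were lower and 6 did not pass, beside 11.9% higher and 11.3% lower over all tested genes. EGLN1, the prolyl hydroxylase that marks HIF for degradation, fell from 66.6 ± 15.4 to 23.6 ± 3.30 CPM (adjusted p = 1.4e-04). EPAS1, the HIF-2 alpha subunit, fell from 1.96 ± 0.613 to 0.228 ± 0.0138 CPM (adjusted p = 4.1e-04). Its MT-F7 level rests on only 6, 6 and 5 reads. ARNT2, a partner of the alpha subunits, rose from 14.8 ± 2.62 to 26.5 ± 1.06 CPM (adjusted p = 0.0038). Among 16 genes for the supply and removal of 2-oxoglutarate and its relatives, the cosubstrate side of the JmjC reaction, 1 rose and 3 fell, which is close to the 23.2% called over all tested genes. PSAT1, a transaminase that yields 2-oxoglutarate, rose from 7.13 ± 2.46 to 15.1 ± 4.18 CPM (adjusted p = 0.0137), but not without MT-F7 replicate 1 or 2. The transaminase gene GOT1 fell from 46.5 ± 5.56 to 30.7 ± 5.14 CPM (adjusted p = 0.0236), but not without MC-F7 replicate 1 or 2 or MT-F7 replicate 2.

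**Figure D5:**
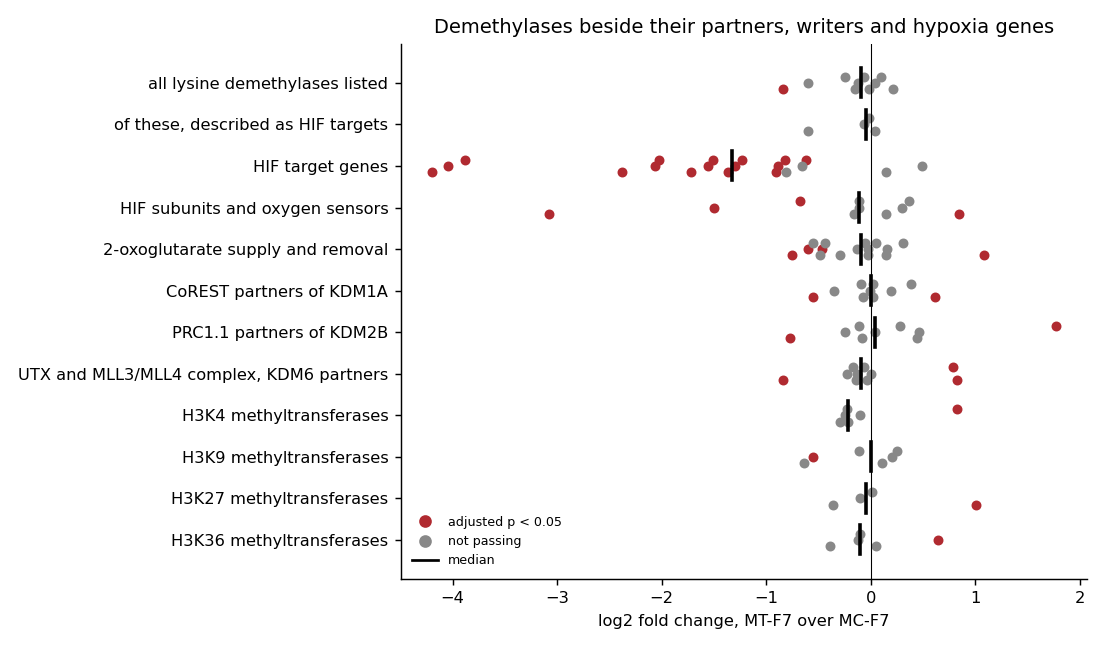
Log2 fold change (MT-F7 over MC-F7) of every tested gene of 12 lists, red where the adjusted p was under 0.05, with a black bar at the median of each list; vertical offsets within a row only separate points. The median of the HIF target genes is at -1.33 and those of the other 11 lists lie between -0.22 and 0.038.

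Among partners of the demethylases, 2 of 10 CoREST genes, 2 of 9 PRC1.1 genes and 3 of 10 genes of the KDM6A complex were called, near the 23.2% of all tested genes, so the counts show nothing particular to these complexes. In the CoREST complex of KDM1A, 10 genes were tested, of which 1 rose (PHF21A, a reader of unmethylated H3K4, log2 fold change 0.61, adjusted p = 0.0216) and 1 fell (GSE1, -0.55, adjusted p = 0.0168), and both were lost without MC-F7 replicate 2, MT-F7 replicate 1 or MT-F7 replicate 2, PHF21A also without MC-F7 replicate 1. In the PRC1.1 complex that KDM2B belongs to, the paralogous subunits YAF2 and RYBP had opposite changes among 9 tested genes. YAF2 rose from 2.94 ± 0.177 to 10.1 ± 2.16 CPM (log2 fold change 1.77, adjusted p = 1.3e-04), and RYBP fell from 10.3 ± 0.353 to 6.01 ± 0.505 CPM (-0.77, adjusted p = 0.0092, lost without MC-F7 replicate 2 or MT-F7 replicate 1). In the complex of KDM6A with the H3K4 methyltransferases KMT2C and KMT2D, 10 genes were tested, of which 2 rose, 1 fell (KDM6A itself, described above) and 7 did not pass. The coactivator NCOA6 rose from 23.8 ± 0.637 to 41.0 ± 4.11 CPM (adjusted p = 0.0025), and KMT2C rose from 11.3 ± 2.14 to 20.1 ± 5.89 CPM (adjusted p = 0.0186), but not without MC-F7 replicate 1 or MT-F7 replicate 3.

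The methyltransferases that write the marks removed by the KDMs had 1 called gene in each of 4 lists of 4 to 6 tested genes, again near the share of 23.2% over all tested genes. Of 4 tested H3K27 genes, EZH2, the catalytic subunit of Polycomb complex PRC2, rose from 106 ± 17.4 to 213 ± 14.4 CPM (log2 fold change 1.01, adjusted p = 6.5e-04) and passed in all 6 fits that left out 1 library. Of 6 H3K9 genes SUV39H1 fell (log2 fold change -0.55, adjusted p = 0.0199), of 5 H3K36 genes NSD2 rose (0.64, adjusted p = 0.0367), and of 6 H3K4 genes KMT2C rose. Both SUV39H1 and NSD2 were lost without MC-F7 replicate 2, SUV39H1 also without MT-F7 replicate 1 or 2, and NSD2 also without MC-F7 replicate 1 or MT-F7 replicate 3.

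Across the 6 libraries, the genes with profiles most like KDM4A were NFATC2IP (Pearson's r = 0.998), STIM1 (r = 0.998) and CDK5R1 (r = 0.995), out of 11915 genes whose mean reached 1 CPM. These r values describe 6 libraries in 2 groups on log2(CPM + 1), and 121 of the genes compared had an r over 0.95.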

How the data were processed

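RNA of 6 libraries, 3 per group, was sequenced as paired-end reads. The authors aligned them with HISAT2 2.0.5 to the Ensembl Bos taurus genome, counted them per gene with featureCounts 1.5.0-p3 and deposited raw counts by Entrez gene. Reads had been filtered for quality. The genome build is not given in the sources used here, so no coordinates are printed. The authors also deposited values that they call TPM. Per library they add up to 154763 to 164394 over 21357 genes, and for 9681 of 9682 genes (those of 50 counts or more in all 6 libraries) TPM over count agreed between libraries within a tolerance of 0.001, so library size remains in them.

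Symbols were taken from the RefSeq table of assembly ARS-UCD2.0 by Entrez identifier (19074 of 19163 matched). Genes were filtered with filterByExpr (minimum count 10, minimum total 15), normalized by TMM and tested two-sided with edgeR 4.0.16 (glmQLFit and glmQLFTest, R 4.3.3), unblocked, with Benjamini-Hochberg adjustment over all genes. Standard errors are the log2 fold change divided by the square root of F. Alternatives used limma 3.58.1 and DESeq2 1.42.0, and the fits were tested on simulated data. All 10 demethylases were named, every other KDM or JmjC gene that passed, and up to 3 passing genes per further list, of which 1 gene is not reported here. The 3 genes most correlated with KDM4A were named too. The members and lists were chosen with earlier results of these data known. No set test was run.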

Additional observations from a re-analysis of the deposited data

How the results depend on the processing

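With limma on log2(TPM + 1) or log2(TPM + 0.1) no demethylase passed. None passed either on log2(TPM + 1) at a mean TPM of at least 1, or on log2(TPM + 1) after rescaling each library to 1000000. The mean TPM filter left 8 of the 10 to test, without KDM3B and KDM4C, and the other settings tested all 10. The rescaling was chosen after seeing the data. In these settings, in that order, KDM4A had log2 fold changes of -0.47, -0.65, -0.47 and -0.68. In the same settings the further KDM and JmjC genes called were 2, 2, 2 and 3 in place of 5. KDM3A was above 0 there (0.068, 0.089, 0.068 and 0.039), as was KDM4B (0.066, 0.11, 0.066 and 0.057), and KDM3B in the first 2 (0.0039 and 0.013). Over all genes edgeR called 3016 of 13001, limma on log2(TPM + 1) called 2367 of 16900, and with the mean TPM filter 1399 of 7418, so that test, input and genes tested differ between these counts. With RLE factors, library size only, both other count filters, DESeq2, the likelihood ratio test and the mitochondrial genes removed, KDM4A remained the 1 demethylase called.

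Leaving out 1 library gave 0 to 1 demethylases, 2 to 4 further KDM and JmjC genes (2 without MC-F7 replicate 2 or MT-F7 replicate 1, 3 without MC-F7 replicate 1 or MT-F7 replicate 2) and 1914 to 3093 calls over all genes, the fewest without MC-F7 replicate 2. Log2 fold changes then ran from -1.05 to -0.67 for KDM4A, -0.10 to 0.27 for KDM2A, 0.0011 to 0.46 for KDM2B, -0.99 to -0.19 for KDM4C, -0.23 to 0.13 for KDM3A, -0.30 to 0.076 for KDM3B and -0.14 to 0.066 for KDM4B. The cause was not tested.

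Blocking on replicate number gave 4674 calls, and KDM4A remained the 1 demethylase called (adjusted p = 3.5e-04). The deviations of same-numbered libraries correlated by 0.188, 0.0893 and 0.544 across genes, and replicate 1 of MC-F7 was more like replicate 2 of MT-F7 (0.412), so the numbers were not taken to pair the libraries, although both replicate 3 libraries deviated together. Counts of 12 to 49 limit KDM4C.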
